A study of Mus musculus and Rattus norvegicus with 37 samples.

Results

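The genes described here are 38 genes of mitochondrial and peroxisomal fatty acid oxidation (FAO), taken from the deposited RNA-seq tables by exact match of the listed gene symbol. Of the 47929 named entries that occur once in a mouse table, all 38 were present, and of the 28026 such entries in a rat table, 36 were present, since Acaa1a and Scp2 were not listed under those symbols. By where the enzyme works, 4 members are acyl-CoA synthetases (Acsl1, Acsl3, Acsl4, Acsl5), 17 are mitochondrial, 13 are peroxisomal and 4 (Acad11, Eci2, Crat, Amacr) belong to both compartments or act at several sites.

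FAO breaks fatty acids down to acetyl-CoA by repeated rounds of dehydrogenation, hydration, dehydrogenation and thiolysis. Synthetases first activate the fatty acid, Cpt1a, Slc25a20 and Cpt2 carry long chains into the mitochondrion, and peroxisomes shorten very long and branched chains and the side chain of bile acid precursors. In liver the pathway is used most in fasting, and many of its genes are targets of the nuclear receptor PPARα.

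The data are bulk RNA-seq of 37 livers, 21 from mice and 16 from rats. LNA29 is a mixture of locked nucleic acids, short synthetic oligonucleotides that inhibit miR-29a and miR-29b/c, each given once under the skin at 20 mg/kg at zeitgeber time 3 to female mice with free access to food, with livers taken on day 7. The WT/Floxed group holds 8 LNA29-treated and 5 saline-treated mice and pools WT C57BL/6J mice with floxed littermates, after the authors excluded 1 floxed saline mouse. The other mouse group is labelled L-Sirt1 KO, a liver-specific deletion of the NAD-dependent deacetylase Sirt1, with 4 LNA29-treated and 4 saline-treated mice.

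The L-Sirt1 KO mice and their floxed littermates were 15 to 20 weeks old, and C57BL/6J mice of the acute LNA29 experiment were 9 to 11 weeks old. The driver of the Cre recombinase is not given in the sources used here. The rats were males on chow: 4 Zucker Fatty rats (ZFR), which are obese through the fa/fa leptin receptor mutation, and 4 Zucker Lean rats (ZLR) of 5.5 months, and ZFR of 3 months given daily injections of 20 mg/kg BT2 (n = 4) or its DMSO vehicle (n = 4) for 1 week. BT2 inhibits the kinase of branched-chain ketoacid dehydrogenase. All values are normalized counts, that is, estimated read counts scaled by the authors within each of 4 tables, so levels are compared only within a table. The replicates are animals as the labels number them, and in bulk liver fewer cells of a type and less RNA per cell cannot be told apart.

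Library depth, estimated from the value of 1 read, was 42.6 to 78.0 M reads in mice and 0.188 to 58.5 M reads in rats. In 4 rat libraries (ZLR replicates 3 and 4, ZFR vehicle replicate 4 and ZFR BT2 replicate 4) it was under 0.5 M, and there 1 read was worth up to 10.5 normalized counts. Hepatocyte markers were present in every group, with summed levels of 4765360 to 7976590 normalized counts per mouse library. Sirt1 itself had 535 to 617 normalized counts in the mice labelled L-Sirt1 KO and 493 to 699 in WT/Floxed mice. These tables were normalized separately, and the counts cover the whole gene, where the loss of single exons would not show. The values therefore cannot decide whether the deletion was present. The paper measured hepatic Sirt1 in both genotypes by RT-qPCR.

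The inhibited miRNAs are shown first, because they share the seed (bases 2 to 8, in capitals) by which they would pair with a member's transcript. The mature mouse sequences are from RefSeq (GRCm38.p6), 5′ to 3′.
mmu-miR-29a-3p: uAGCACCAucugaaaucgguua
mmu-miR-29b-3p: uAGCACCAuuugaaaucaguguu
mmu-miR-29c-3p: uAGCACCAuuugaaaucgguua

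The 7 bases complementary to this seed, TGGTGCT, were searched on the sense strand of the annotated 3′ UTRs of GRCm38. They were found in 2 of the 38 members (5.26%), against 15.4% of the 13637 genes tested in a mouse table that have an annotated 3′ UTR. Annotated 3′ UTRs had a median length of 749 bases among the members and 1147 among those genes. Cpt2, the inner-membrane carnitine palmitoyltransferase, held 1 site and Ehhadh, the peroxisomal bifunctional enzyme, held 2, the first of which was followed by the A of an 8-base site. They are printed with 11 flanking bases on each side and the 7 bases in capitals, 5′ to 3′ on the transcript strand (minus).
Cpt2, chr4:107904123-107904151: aaactagttccTGGTGCTtgagcagccag
Ehhadh, chr16:21761939-21761967: gctggtggtggTGGTGCTaaatggtcagc
Ehhadh, chr16:21761622-21761650: atgatgcaccaTGGTGCTgtgttgcagca

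A match of letters is a description and not proof of a working site. With LNA29 the log2 fold change of Cpt2 was -0.05 in WT/Floxed and -0.37 in L-Sirt1 KO mice, and that of Ehhadh was 0.20 and -0.48, and neither gene passed the test in either genotype. None of the 6 members called with LNA29 below held the 7 bases in its annotated 3′ UTR. The direct repeat read by PPARα with its partner RXR (AGGTCA, 1 base of any kind and AGGTCA again, at least 10 of the 12 fixed bases, both strands) stood between 250 bases before and 50 after the start of 3 of 32 members with a promoter entry (9.38%; Echs1, Etfa and Slc25a20), against 3.19% of 11339 promoters of tested genes, and none of these 3 was called with LNA29.

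In livers of saline-treated WT/Floxed mice the members spanned a wide range of levels per kilobase of merged exon. The highest were Acaa1b with 38310 normalized counts per kb, a peroxisomal thiolase, Phyh with 36226, which starts α-oxidation of phytanic acid, Scp2 with 34997, whose long form is a peroxisomal thiolase, and Acaa2 with 31982, the mitochondrial thiolase for medium chains. The lowest were Acsl3 with 553, the carnitine acetyltransferase Crat with 612, Acsl4 with 640 and the very long chain transporter Abcd2 with 821. Median levels were 3732 normalized counts per kb for mitochondrial and 6600 for peroxisomal members, a difference that was not tested. Merged exons take in all annotated transcripts of a gene, so these levels also depend on the annotation.

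The first comparison asks how the FAO genes respond to inhibition of miR-29 in WT/Floxed mice. A mouse gene was called when the limma test gave p under 0.05 and adjusted p under 0.2, its mean was over 50 normalized counts and its fold change over 1.2, which are the limits that the study applied to its own DESeq2 tests. In WT/Floxed livers 0 of the 38 members were called lower and 0 higher by limma, where 1.93% of the 15811 genes tested were called lower and 2.42% higher, and 0 members had an unadjusted p under 0.05, against a background of 6.5% lower and 6.82% higher. For 0 members did the groups fail to overlap, against 0.569% of all genes lower and 0.942% higher. The median log2 fold change of the members was -0.01, against 0.00 for all genes tested, and single members lay between -0.14 and 0.25. Mitochondrial members had a median of -0.01 and peroxisomal members of -0.03.

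Cpt1a, the outer-membrane carnitine palmitoyltransferase that sets the rate of entry, had 20932, 9761, 17726, 20660 and 13068 normalized counts with saline and 11096 to 26685 (median 18543) with LNA29. Acadl, the long-chain acyl-CoA dehydrogenase, had 15483, 13862, 12765, 14561 and 13936 with saline and 12092 to 16222 (median 13485) with LNA29. Both groups overlapped for both genes, with log2 fold changes of 0.13 ± 0.22 (SE) for Cpt1a and -0.06 ± 0.08 for Acadl and adjusted p of 0.862 and 0.822 by limma.

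Among the synthetases, Acsl1, the main long-chain form in liver, had 62489, 42962, 58925, 60430 and 39060 normalized counts with saline and 43794 to 77010 (median 62460) with LNA29. Acsl5 had 31293, 32069, 32317, 29818 and 26774 with saline and 23411 to 31581 (median 27888) with LNA29. On the log2 scale Acsl1 differed by 0.25 (95% interval -0.07 to 0.57, adjusted p 0.524 by limma) and Acsl5 by -0.14 (-0.30 to 0.02, adjusted p 0.461), and the groups overlapped.

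The carnitine-acylcarnitine carrier Slc25a20 had 6665, 5423, 5590, 6711 and 6431 normalized counts with saline and 5873 to 10018 (median 6920) with LNA29, and Hadha, the α subunit of the trifunctional protein, had 20348, 15920, 19226, 21149 and 19343 with saline and 18737 to 25238 (median 20899) with LNA29. These were the mitochondrial members with the largest differences, at log2 fold changes of 0.18 and 0.16 and adjusted p of 0.551 and 0.477 by limma. Of the peroxisomal members, Crot, which makes carnitine esters of shortened chains for export to mitochondria, had 61889, 47244, 60651, 67174 and 49149 with saline and 55394 to 81658 (median 65641) with LNA29, and Ehhadh had 35513, 25345, 31450, 36255 and 31286 with saline and 28634 to 52075 (median 33987) with LNA29. The log2 fold changes were 0.21 and 0.20 with adjusted p of 0.468 and 0.582, and the groups overlapped for each of these genes.

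Of the members of both compartments, the enoyl-CoA isomerase Eci2 had 12432, 7835, 8387, 11282 and 9805 normalized counts with saline and 8628 to 16816 (median 11493) with LNA29, a log2 fold change of 0.25 (adjusted p 0.540, limma). Crat had 3982, 2688, 3450, 3510 and 2849 with saline and 1586 to 5486 (median 3143) with LNA29, a log2 fold change of -0.13 (adjusted p 0.866). LNA29 replicate 2 was the highest of all 13 mice for Cpt1a, Slc25a20, Hadha, Crot, Ehhadh, Eci2 and Crat.

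The backgrounds pooled in this group were also read apart, and the difference between them was not tested. In the WT mice alone (4 LNA29, 3 saline) the members' median log2 fold change was -0.04 with 0 members at p under 0.05 by limma, and in the floxed mice alone (4 LNA29, 2 saline) it was 0.07 with 5, where 8.96% of all genes in the WT fit and 15.7% in the floxed fit had such a p. In the floxed mice, with 2 in the saline arm, 1 member was called higher, where 3.22% of all genes were. It was Acox2, a peroxisomal oxidase for bile acid precursors, at 0.43 on the log2 scale (adjusted p 0.184, limma) against -0.11 (adjusted p 0.769) for the WT mice.

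In the mice labelled L-Sirt1 KO, the called FAO genes of both compartments had lower levels with LNA29 than with saline. Of the 38 members, 6 were called lower and 0 higher, where 0.68% of the 15885 genes tested were called lower and 1.19% higher. The 6 were Decr1, Eci1, Acadl and Acaa2 of the mitochondrion and Acaa1a and Acaa1b of the peroxisome, with levels 0.660 to 0.829 times those with saline. Of all members 33 lay below 0 on the log2 scale, against 50.5% of all genes, and their median was -0.27, against 0.00 for all genes tested. At an unadjusted p under 0.05 there were 18 lower members and 2 higher ones, against a background of 4.9% lower and 6.3% higher, and 12 members were lower without overlap of the groups and 0 higher, against 3.3% and 3.65% of all genes.

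Decr1, the mitochondrial 2,4-dienoyl-CoA reductase used for polyunsaturated chains, had 11573, 14701, 11567 and 16406 normalized counts with saline and 8841, 9336, 8482 and 8728 with LNA29. Every LNA29 mouse was below every saline mouse, and saline replicates 2 and 4 were the highest. The log2 fold change was -0.60 ± 0.12 (SE) with an adjusted p of 0.0963 by limma.

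Eci1, the mitochondrial enoyl-CoA isomerase that moves double bonds in unsaturated chains, had 8415, 8856, 8099 and 10299 normalized counts with saline and 6543, 6689, 5939 and 6411 with LNA29. The groups did not overlap, and saline replicate 4 was the highest. The log2 fold change was -0.47 ± 0.09 with an adjusted p of 0.0880 by limma.

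Acadl had 14798, 17265, 14890 and 18172 normalized counts with saline and 13327, 12043, 11155 and 11859 with LNA29, and Acaa2 had 51566, 55266, 54653 and 53632 with saline and 44084, 46415, 44165 and 43747 with LNA29. Neither gene overlapped between groups, and Acaa2 had the smallest change of the 6. On the log2 scale Acadl fell by 0.43 ± 0.10 (adjusted p 0.141, limma) and Acaa2 by 0.27 ± 0.07 (adjusted p 0.189). Acadl was named by the study from these same mice, as was Cpt1a, so neither is independent evidence of a direction.

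The peroxisomal thiolases Acaa1a and Acaa1b cleave the shortened 3-ketoacyl-CoA. Acaa1a had 10367, 12319, 11442 and 14923 normalized counts with saline and 9377, 8651, 8416 and 8660 with LNA29, and Acaa1b had 69930, 83482, 70418 and 73680 with saline and 65496, 47878, 50091 and 52412 with LNA29. No LNA29 mouse reached the lowest saline mouse for either gene, though LNA29 replicate 1 came close for Acaa1b. Both had a log2 fold change of -0.47 ± 0.11, with adjusted p of 0.148 and 0.163 by limma. They are near-identical copies on chromosome 9 (GRCm38, 119339676 to 119350299 and 119148023 to 119157093). How reads were split between them is therefore uncertain, and so is whether their calls are independent. On the opposite strand Acaa1a overlaps Myd88 and Slc22a14, and Acaa1b overlaps Dlec1. The strand setting of the counting is not given in the sources used here.

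For each of the 6 called genes the two-sided exact permutation test over the mice gave p = 0.0286, the smallest value that 4 against 4 mice allow. These calls rest on few mice. They fell to 0 when the adjusted p limit was 0.05, when the flow cell of sequencing was a covariate, or when LNA29 replicate 3 or 4 was left out, and to 1 (Eci1) without LNA29 replicate 2 or saline replicate 2. They fell to 2 (Decr1 and Eci1) without saline replicate 4 and rose to 11 without saline replicate 1. The share of all genes called lower moved as well, from 0.68% to 0.17% with the flow cell. It was 0.151%, 0.132% and 0.132% without LNA29 replicates 3, 4 and 2. Without saline replicates 2, 4 and 1 it was 0.289%, 0.201% and 1.29%. At an adjusted p under 0.05 by limma, 0.0252% of all genes were lower. Within each of the 3 flow cells the 6 genes were lower with LNA29, from -0.35 to -0.79 for Decr1 and -0.35 to -0.58 for Eci1 on the log2 scale, although 1 flow cell held a single mouse of each group and the others 3 mice. The median of all 38 members was -0.52, -0.06 and -0.33 in the 3 flow cells, with 32, 26 and 33 members lower.

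**Figure D1:**
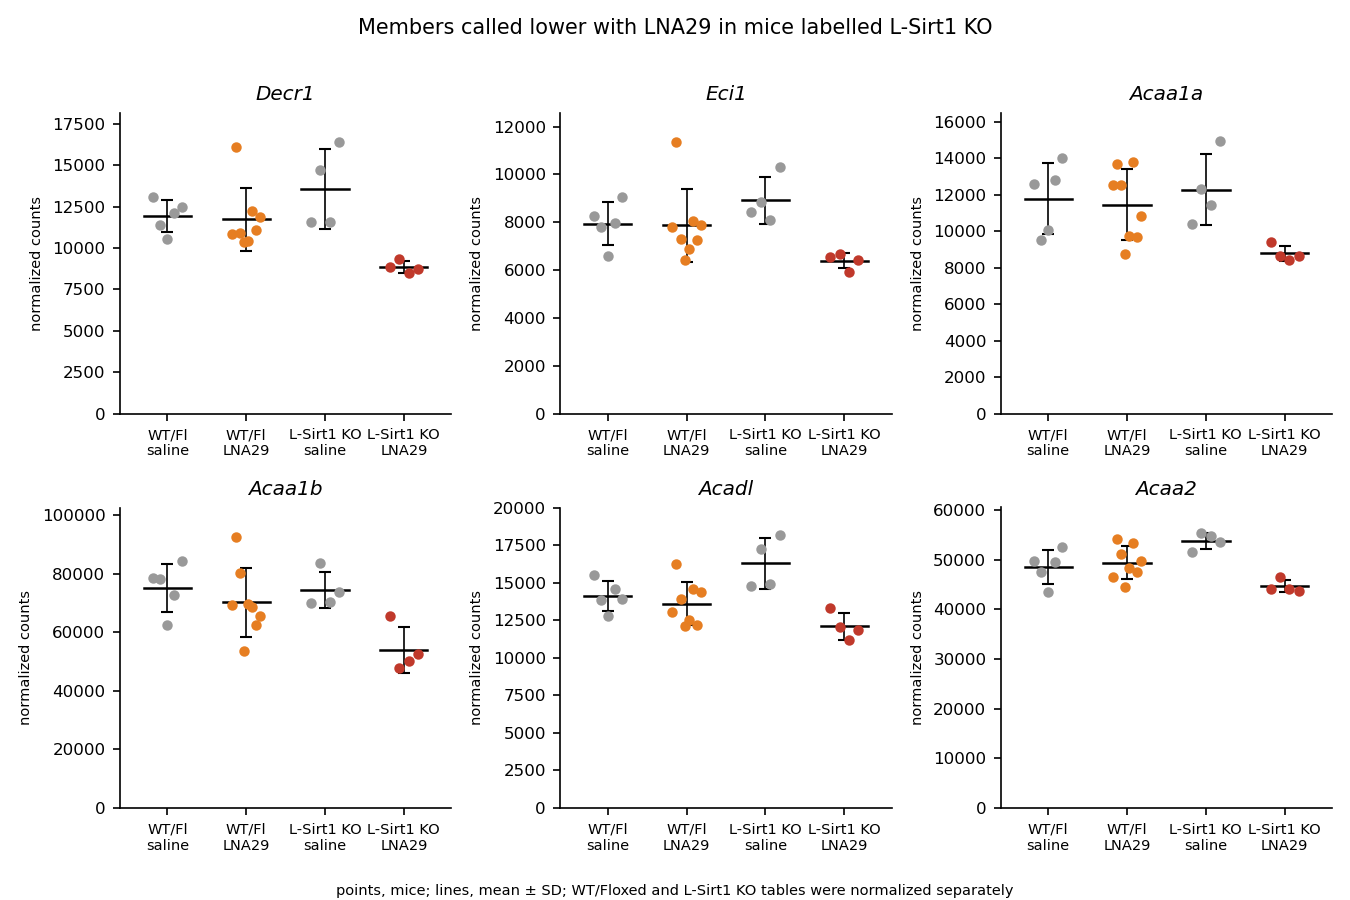
Normalized counts (vertical axis) of the 6 members called lower in mice labelled L-Sirt1 KO, for 4 groups of mice, with each point a mouse and lines giving the mean ± SD (n = 5 and 8 for WT/Floxed, 4 and 4 for L-Sirt1 KO). The L-Sirt1 KO LNA29 points lie below all L-Sirt1 KO saline points in each panel, while the WT/Floxed groups overlap, and the tables behind the left and right pairs were normalized separately.

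Other mitochondrial members were lower without overlap but did not pass the criteria. The very long chain dehydrogenase Acadvl had a log2 fold change of -0.26 (adjusted p 0.241), Hadhb, the β subunit of the trifunctional protein, -0.39 (0.313), and the short-chain dehydrogenase Acads -0.16 (0.508) by limma. Of the peroxisomal members, Hsd17b4, the second bifunctional enzyme, had -0.29 (0.334) and Scp2 -0.25 (0.358). The electron transfer flavoprotein subunits Etfa and Etfb, the hydroxyacyl-CoA dehydrogenase Hadh and the hydratase Echs1 lay between -0.10 and 0.01, and Phyh was at -0.02.

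The largest differences belonged to genes that were not called, because their saline mice lay far apart. Pex11a, a membrane protein of peroxisome division, had 2873, 6789, 3302 and 7325 normalized counts with saline and 2199, 2622, 2557 and 2342 with LNA29, a log2 fold change of -0.94 ± 0.29 (adjusted p 0.263, limma). Crat had 2652, 8333, 3003 and 8263 with saline and 2720, 2268, 3133 and 2585 with LNA29, a log2 fold change of -0.86 ± 0.37 (adjusted p 0.425). For both, saline replicates 2 and 4 were more than 2 times as high as replicates 1 and 3, and for Crat the latter were at the level of the LNA29 mice.

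Eci2 had 8541, 17628, 9802 and 18511 normalized counts with saline and 7357, 8651, 7060 and 7831 with LNA29, and Cpt1a had 10561, 23395, 16948 and 27164 with saline and 10931, 15346, 10499 and 12477 with LNA29. Ehhadh had 23014, 52681, 23757 and 43472 with saline and 26542, 24502, 21634 and 23573 with LNA29. All 3 overlapped between groups, and the log2 fold changes were -0.74 ± 0.24 for Eci2 (adjusted p 0.287), -0.59 ± 0.26 for Cpt1a (0.444) and -0.48 ± 0.25 for Ehhadh (0.532) by limma.

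The synthetases did not share the direction. Acsl3 had 2539, 2135, 1971 and 2068 normalized counts with saline and 2675, 2362, 3734 and 2557 with LNA29, at a log2 fold change of 0.36 ± 0.15 (adjusted p 0.399, limma), and Acsl1 had 33158, 89282, 39572 and 73564 with saline and 43196, 49757, 52792 and 44902 with LNA29, at -0.19 ± 0.28 (adjusted p 0.840). The groups overlapped for both, and the synthetases as a group had a median of 0.04. Among the peroxisomal members, 12 of 13 had a log2 fold change below 0, and Acox2 was the exception at 0.29 (adjusted p 0.420).

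The spread among the saline mice ran through much of the set. In 26 of the 38 members saline replicates 2 and 4 were both above replicates 1 and 3, a pattern described after the values were seen, and this held for 11 of 17 mitochondrial, 10 of 13 peroxisomal, 4 of 4 shared and 1 of 4 synthetase genes. This order was not counted over all genes, so it cannot be called particular to the members. The mean of those mice was 1.25 times that of the others at the median member and 2.93 times for Crat. The median coefficient of variation of the members was 15.5% in the saline group and 6.49% in the LNA29 group. Fgf21, a hormone made by the fasted liver, had 1034 and 476 normalized counts in saline replicates 2 and 4 and 199 and 80.0 in replicates 1 and 3. Pck1, read as another fasting gene, did not follow this order, with 59154 and 94127 in replicates 2 and 4 and 41000 and 79262 in replicates 1 and 3. The order of the other fasting genes was not read. Whether feeding state had a part in the FAO differences was not tested.

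**Figure D2:**
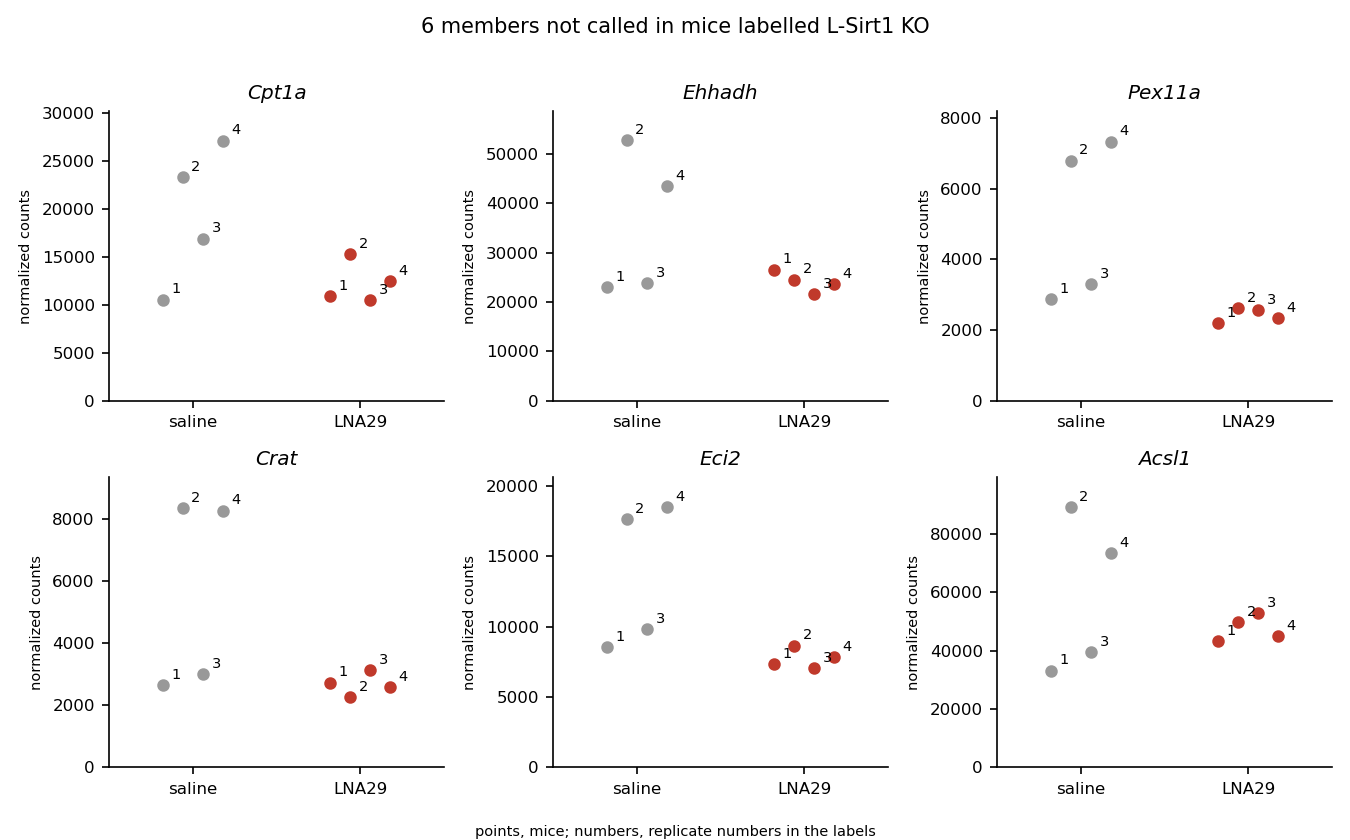
Normalized counts (vertical axis) of 6 members that were not called in mice labelled L-Sirt1 KO, 1 point per mouse with its replicate number, saline in grey and LNA29 in red. Saline mice 2 and 4 stand above saline mice 1 and 3 in every panel, and for Crat and Ehhadh the lower saline mice lie at the level of the LNA29 mice.

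Other measures differed between the same mice. An index of the liver clock, the mean log2 level of Arntl, Npas2, Clock and Nfil3 minus that of Nr1d1, Dbp and Per3, was -3.04 to 1.97 with saline and 2.13 to 3.30 with LNA29, so the groups did not overlap, and Dbp reached 7449 normalized counts in saline replicate 3 against 48.5 to 86.6 with LNA29. With this index as a covariate 2 members were called, Decr1 (-0.71) and Eci1 (-0.53), where 0.227% of all genes were called lower. In that fit Acadl was at -0.50, Acaa1b at -0.56, Acaa1a at -0.51 and Acaa2 at -0.25, and the median of the members was -0.35. Treatment and clock state cannot be told apart in these mice. The summed stellate cell markers were 8161 to 9363 normalized counts with saline and 12450 to 17564 with LNA29. Among 7 markers Col1a1 and Col3a1 were called higher, and the paper names both as target genes of miR-29. Both were also called higher with LNA29 in WT/Floxed mice, where 0 FAO members were called. There the log2 fold changes were 0.87 for Col1a1 and 1.19 for Col3a1 (adjusted p 0.123 and 0.0162 by limma). Whether stellate cell number differed was not tested. In the L-Sirt1 KO mice Clec4f was called lower of 6 macrophage markers (-0.29, adjusted p 0.189 by limma). Of 7 hepatocyte markers 0 were called in these mice, with summed levels that overlapped (5331310 to 6737780 with saline and 6314050 to 7312660 with LNA29). The part of clock phase or cell makeup in the FAO differences was not tested beyond these values.

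Mitochondrial and peroxisomal members had similar medians in the L-Sirt1 KO mice. The median log2 fold change was -0.26 over 17 mitochondrial and -0.28 over 13 peroxisomal members, with 4 and 2 called lower, and -0.56 over the 4 members of both compartments, of which 0 were called. Within a mouse, the mean log2 level of the mitochondrial members minus that of the peroxisomal ones, each set relative to the saline mean, was -0.14 to 0.09 with saline and -0.03 to 0.04 with LNA29. The groups overlapped on this difference. The mitochondrial mean alone was -0.17 to 0.19 with saline and -0.34 to -0.24 with LNA29, without overlap, and the peroxisomal mean was -0.26 to 0.22 and -0.36 to -0.23, with overlap.

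A call in L-Sirt1 KO mice and none in WT/Floxed mice is not a difference between them, so the difference of responses was tested in limma over 15601 genes. At an adjusted p under 0.2, 0 members differed, where 0.0449% of all genes did and 0.0192% had a lower response in L-Sirt1 KO mice. At an unadjusted p under 0.05, 15 of 38 members had a lower response in L-Sirt1 KO mice and 0 a higher one, where 4.24% of all genes had a lower one. The median difference of the members was -0.31 on the log2 scale, against 0.00 for all genes. By compartment the 15 were 8 mitochondrial, 5 peroxisomal and 2 shared members.

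The difference of responses was -0.57 ± 0.16 (SE) for Decr1 (adjusted p 0.280 by limma), the lowest of the set, and -0.99 ± 0.29 for Eci2 (adjusted p 0.302). It was -0.37 ± 0.12 for Acadl (adjusted p 0.355), -0.30 ± 0.09 for Acaa2 (0.347) and -0.45 ± 0.17 for Eci1 (0.402). For Cpt1a it was -0.72 with a 95% interval of -1.50 to 0.05 (adjusted p 0.584). With limma's sample quality weights 15 members passed the adjusted limit, where 7.82% of all genes did. Leaving out single mice gave 0 to 3, for which the shares of all genes are not given here. The count thus depends on how the mice are weighted.

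**Figure D3:**
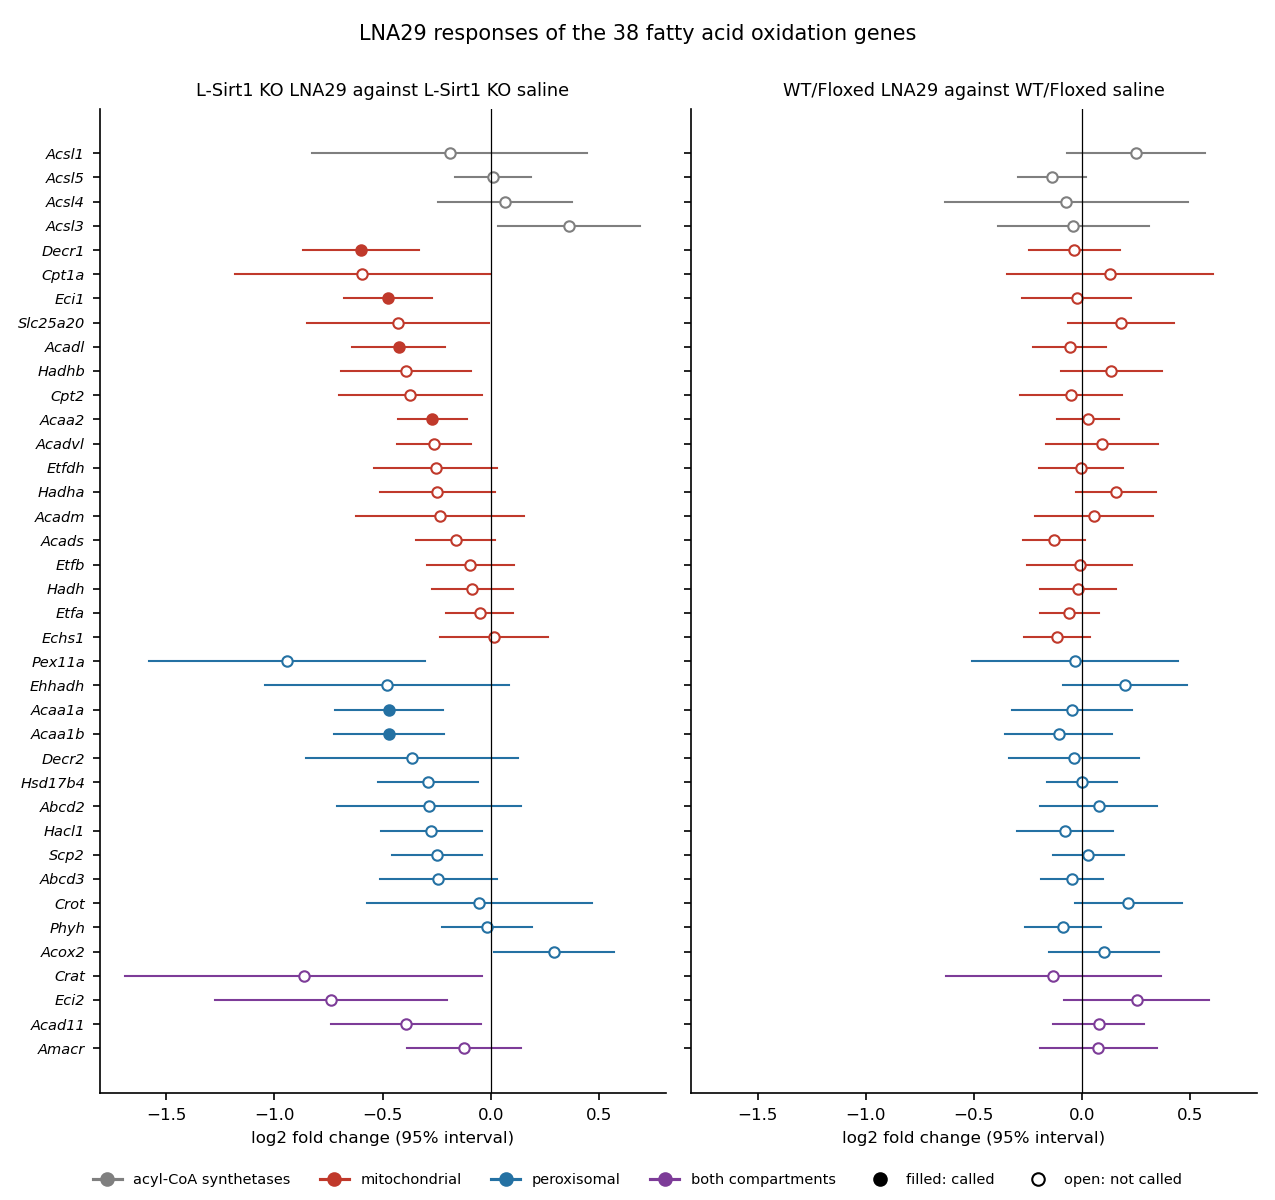
Log2 fold change with LNA29 against saline (horizontal axis, 95% interval as a line) of the 38 members, in mice labelled L-Sirt1 KO (left) and WT/Floxed mice (right), coloured by compartment and filled where called. On the left 33 of 38 points lie below 0 and 6 are filled, and on the right the points lie between -0.14 and 0.25 and none is filled.

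Other genes of the pathway were read from a separate list of 16. In L-Sirt1 KO mice 12 of 15 tested had a log2 fold change below 0 with a median of -0.28, and 1 was called, Ech1, a dienoyl-CoA isomerase found in mitochondria and peroxisomes, with 22220 ± 2389 normalized counts (SD, n = 4) with saline and 14838 ± 1353 (n = 4) with LNA29 (log2 fold change -0.58, adjusted p 0.0603 by limma). In WT/Floxed mice 4 of 15 tested were called lower and 0 higher, where 1.93% of all genes were called lower and 2.42% higher. Of the 15, 8 lay below 0 and 7 above, with a median of -0.06. Among the 4 were Acad10 (-0.53), the isomerase Eci3 (-1.64) and the peroxisomal enoyl reductase Pecr (-0.29), with adjusted p of 0.0409, 0.0688 and 0.164 by limma. Of 15 peroxins, which build peroxisomes, Pex10 (-0.41, adjusted p 0.125) was called lower in WT/Floxed mice, while L-Sirt1 KO mice had 0 calls, with Pex26 at -0.39 (adjusted p 0.330) and Pex11g at 0.26 (0.456) the farthest from 0. Among oxidation genes that were not called, Acacb, whose product malonyl-CoA inhibits Cpt1a, was at -0.71 in WT/Floxed mice (adjusted p 0.230), and the carnitine transporter Slc22a5 at -0.88 (0.442) and Eci3 at -0.71 (0.565) in L-Sirt1 KO mice.

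Of 7 regulators 0 were called in either genotype by limma. PPARα itself (Ppara) had 2645 ± 538 normalized counts with saline and 3082 ± 707 with LNA29 in WT/Floxed mice, and 2557 ± 416 and 2266 ± 554 in L-Sirt1 KO mice. The coactivator Ppargc1a was at -0.33 in WT/Floxed mice (adjusted p 0.578) and the nuclear receptor Esrra at -0.33 in L-Sirt1 KO mice (0.385). Of 7 fasting genes, Fgf21 was called higher in WT/Floxed mice (log2 fold change 1.90, adjusted p 0.171), and G6pc (0.75, adjusted p 0.0538) and Igfbp1 (1.19, adjusted p 0.0603) were called higher in L-Sirt1 KO mice, where Fgf21 was at -2.51 (adjusted p 0.247). Of the marker lists for cholangiocytes, red blood cells, adipocytes and pancreatic acinar cells 0 genes were called in either mouse comparison.

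The next comparison asks how the FAO genes differ in the fatty liver of ZFR. A rat gene was called at an adjusted p under 0.05. Of the 35 members tested, 5 were called lower in ZFR than in ZLR and 0 higher, where 2.46% of the 8633 genes tested were called lower and 1.8% higher. The 5 came from different steps. They were Amacr, which handles branched chains and bile acid precursors, Acox2, an oxidase for bile acid precursors, the synthetases Acsl4 and Acsl1, and Acadm, the medium-chain dehydrogenase. The set as a whole showed no common direction, with 15 members below and 20 above 0 and a median log2 fold change of 0.09, against 0.07 for all genes tested. At an unadjusted p under 0.05 there were 9 lower and 8 higher members, against a background of 8.17% and 8.39%.

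Amacr, the racemase that makes branched acyl-CoA usable, had 689, 592, 779 and 846 normalized counts in ZLR and 313, 273, 376 and 376 in ZFR. Every ZFR was below every ZLR. The log2 fold change was -1.12 ± 0.15 (SE) with an adjusted p of 0.00275 by limma, a level 0.461 times that of ZLR.

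Acsl4, which prefers arachidonic acid, had 488, 477, 600 and 449 normalized counts in ZLR and 276, 277, 244 and 224 in ZFR. Acsl1 had 4707, 4611, 3766 and 3992 in ZLR and 2928, 2963, 3134 and 3233 in ZFR. Neither overlapped between the groups, with a difference of -0.97 ± 0.12 for Acsl4 (adjusted p 0.00227, limma) and -0.47 ± 0.09 for Acsl1 (adjusted p 0.0214) on the log2 scale.

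Acox2 had 981, 904, 569 and 741 normalized counts in ZLR and 399, 428, 516 and 471 in ZFR, and Acadm had 1323, 1443, 1538 and 1211 in ZLR and 779, 942, 1028 and 1034 in ZFR. The groups did not overlap, and for Acox2 the lower ZLR values were those of the 2 shallow libraries. On the log2 scale the difference was -0.79 ± 0.17 for Acox2 (adjusted p 0.0305, limma) and -0.55 ± 0.12 for Acadm (adjusted p 0.0319).

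For each of the 5 the exact permutation test (two-sided) gave p = 0.0286, the smallest possible. Amacr and Acsl4 were called whichever of the 8 rats was left out, and the count without single rats was 2 to 4. Without the 2 ZLR libraries under 0.5 M reads, Amacr (-0.94), Acsl4 (-0.92), Acox2 (-1.06) and Acsl1 (-0.61) were called and Acadm was at -0.55 with an adjusted p of 0.0562, while Crat was called at -1.65 (adjusted p 0.0354). TMM scaling, no minimum mean and the replicate block each left 2 calls, Acsl4 and Amacr. With TMM scaling 1.6% of all genes were called lower, and with no minimum mean 0.668%. The shares with the replicate block and without single rats are not given here. Within both flow cells the 5 genes were lower in ZFR, from -1.11 to -1.13 for Amacr and from -0.80 to -1.15 for Acsl4. The ZLR libraries under 0.5 M reads were the only lean ones of their flow cell.

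**Figure D4:**
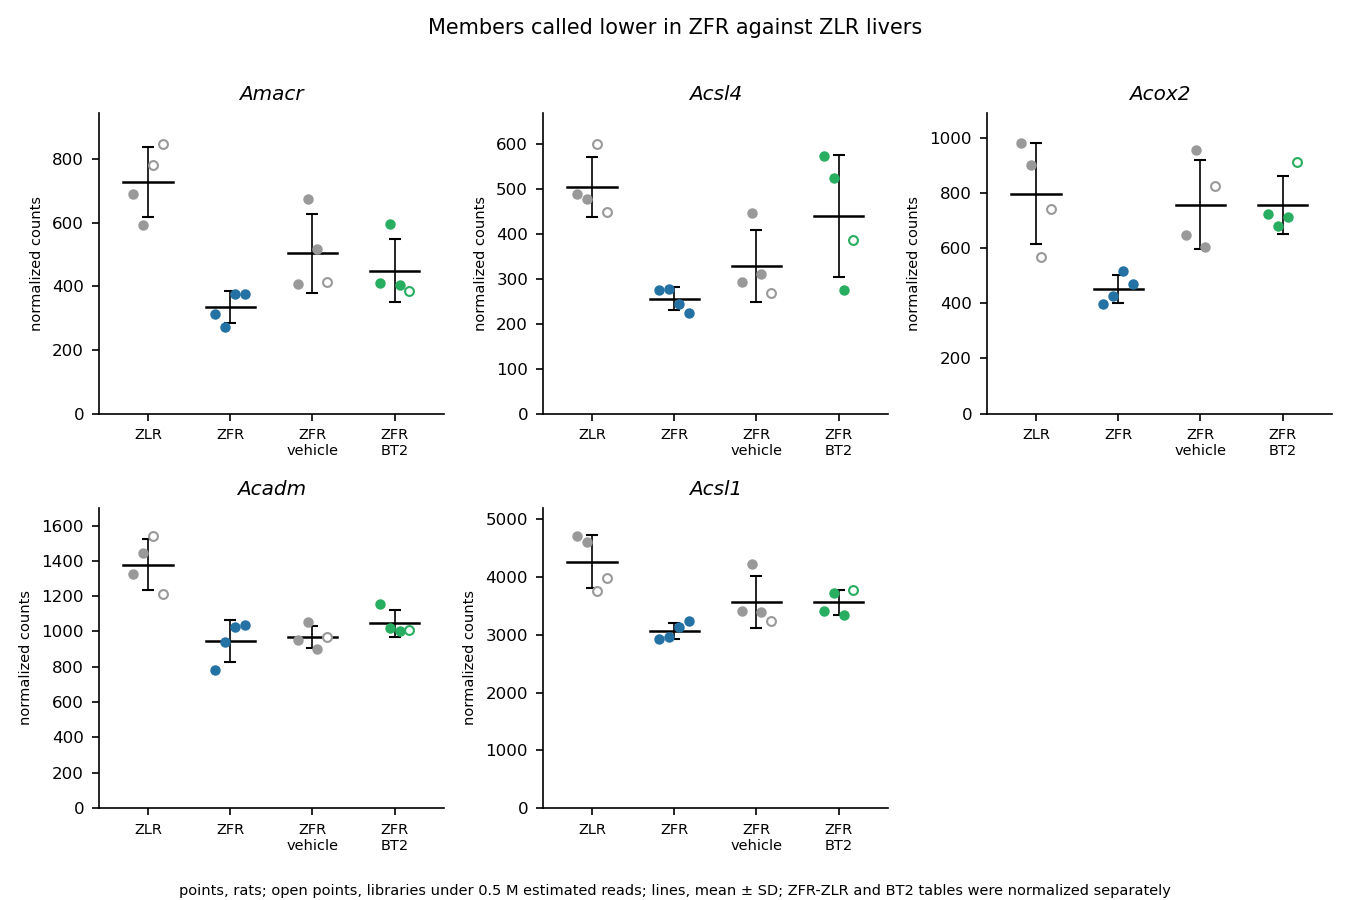
Normalized counts (vertical axis) of the 5 members called lower in ZFR against ZLR, with each point a rat, open points for libraries under 0.5 M reads, and lines for the mean ± SD (n = 4 each); ZFR given vehicle or BT2 come from a separately normalized table. All ZFR points lie below all ZLR points, and the vehicle and BT2 groups overlap in every panel.

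Members on the other side did not pass. Ehhadh had 546, 590, 548 and 564 normalized counts in ZLR and 731, 1079, 846 and 703 in ZFR, and missed the limit at a log2 fold change of 0.56 ± 0.13 (adjusted p 0.0501, limma). Acsl5, Acad11, Abcd3 and Hsd17b4 were also higher in every ZFR than in every ZLR, with log2 fold changes of 0.40, 0.56, 0.40 and 0.18 and adjusted p of 0.0737, 0.0801, 0.0670 and 0.325. These 5 members without overlap on the higher side and 5 on the lower side stand beside backgrounds of 7.8% and 6.68%. By the criteria used for mice, Ehhadh, Acsl5, Acad11 and Abcd3 were called higher, where 3.46% of all genes were.

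The difference of Echs1 rested on a shallow library. Echs1, the mitochondrial short-chain hydratase, had 256, 380, 653 and 10.4 normalized counts in ZLR and 407, 259, 468 and 513 in ZFR, a log2 fold change of 1.28 ± 1.05 (adjusted p 0.565, limma), and it was 0.35 (adjusted p 0.561) without the shallow libraries. The 10.4 in ZLR replicate 4 is the value of 1 read there. Crat had 46.2, 48.0, 11.9 and 23.5 in ZLR and 9.06 to 21.8 in ZFR (-0.93 ± 0.50, adjusted p 0.391), with overlapping groups, and as given above was farther from 0 without the shallow libraries. Crot had 425, 413, 449 and 445 in ZLR and 161, 285, 323 and 449 in ZFR (-0.60 ± 0.26, adjusted p 0.283), where ZFR replicate 4 was as high as the lean rats, and was at -0.55 (adjusted p 0.438) without the shallow libraries.

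Cpt1a and Acadl were not called in ZFR. Cpt1a had a log2 fold change of 0.10 (95% interval -0.28 to 0.49, adjusted p 0.773 by limma) and Acadl of 0.33 (0.05 to 0.61, adjusted p 0.207). Of the mitochondrial members 1 of 17 was called lower, with a median of 0.08 on the log2 scale, and of the peroxisomal members 1 of 10, with a median of 0.15. Abcd2 was under the minimum mean of 10, at 0 to 10.5 normalized counts per rat, and was not tested.

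Clock genes separated the same rats. The clock index was 1.10 to 5.02 in ZLR and -3.02 to -0.83 in ZFR, and of 11 clock genes tested Arntl and Npas2 were called lower and Dbp, Tef, Per2 and Per3 higher. With the index as a covariate 0 members were called by limma, where 0.0116% of all genes were called lower. In that fit the log2 differences were -0.97 for Acsl4, -0.54 for Amacr, -1.35 for Acox2, -0.89 for Acadm and -0.75 for Acsl1. Group and clock state cannot be told apart in these rats. The summed stellate markers were 311 to 451 normalized counts in ZLR and 680 to 1062 in ZFR, with Col1a1, Col3a1 and Acta2 called higher, and the hepatocyte markers Ttr and Apob were called lower (-0.43 and -0.39), with summed levels of 217652 to 287795 in ZLR and 172776 to 262060 in ZFR. The part of cell makeup in the lower FAO genes was not tested. Of the other pathway lists, 0 of 10 tested oxidation genes, 0 of 15 peroxins, 0 of 5 regulators and 0 of 7 fasting genes were called by limma. Among these genes were Acad9 at 0.93 (adjusted p 0.171) and Acacb at 0.84 (0.0895) of the oxidation genes, Pex11g at 1.27 (0.487) of the peroxins, Esrra at 0.48 (0.647) and Lpin1 at 0.40 (0.642) of the regulators, and Pdk4 at 0.61 (0.326) and Pck1 at -0.49 (0.312) of the fasting genes.

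The last comparison asks whether BT2 changes the FAO genes of ZFR. Of the 35 members tested 0 were called in either direction by limma, where 0% of the 8405 genes tested were called lower and 0% higher. At an unadjusted p under 0.05 there were 4 higher members (Crat, Eci1, Hadha and Crot) and 0 lower ones, against backgrounds of 1.95% and 2%. The median log2 fold change was 0.03, against 0.01 for all genes tested, with a mitochondrial median of 0.09 and a peroxisomal one of 0.01.

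Eci1 had 158, 150, 145 and 82.6 normalized counts with vehicle and 238, 226, 301 and 163 with BT2. The lowest BT2 rat was above the highest vehicle rat, and the lowest rat of each group was its shallow library. The log2 fold change was 0.80 ± 0.24 (adjusted p 0.898, limma), and 0.74 ± 0.16 (adjusted p 0.996) without the shallow libraries.

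Hadha had 537, 561, 511 and 403 normalized counts with vehicle and 701, 591, 582 and 669 with BT2, and Crat had 16.5, 8.70, 12.4 and 0 with vehicle and 20.2, 35.4, 33.0 and 30.6 with BT2. Both were higher in every BT2 rat, and these 3 members without overlap on the higher side, and 0 on the lower, stand beside backgrounds of 1.52% and 1.44%. The log2 fold changes were 0.35 ± 0.14 and 2.13 ± 0.80 (adjusted p 0.898 for both, limma). For Crat the vehicle library at 0 is a shallow one where 1 read was worth 10.3, and without shallow libraries the value was 1.18.

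Of the peroxisomal members Crot had 253, 197, 145 and 81.4 normalized counts with vehicle and 224, 271, 296 and 220 with BT2, and Pex11a had 36.6, 44.3, 32.1 and 20.6 with vehicle and 81.8, 88.1, 40.2 and 21.8 with BT2. The groups overlapped, with log2 fold changes of 0.68 ± 0.30 and 0.63 ± 0.43 (adjusted p 0.898 each, limma). Acaa2 had 722, 804, 1118 and 1332 with vehicle and 918, 1711, 1416 and 1254 with BT2, also overlapping, at 0.42 ± 0.23.

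Of the 5 genes called lower in ZFR, Acsl4 had 292, 447, 310 and 268 normalized counts with vehicle and 573, 523, 274 and 386 with BT2 (0.39, 95% interval -0.14 to 0.92), and Amacr had 408, 673, 517 and 413 with vehicle and 411, 595, 404 and 386 with BT2 (-0.15, -0.58 to 0.27). The groups overlapped for both. Acsl1, Acox2 and Acadm had log2 fold changes of 0.00 (95% interval -0.24 to 0.25), 0.01 (-0.35 to 0.38) and 0.11 (-0.12 to 0.34), and Acsl5 one of 0.19 with 1079, 969, 1120 and 805 with vehicle and 915, 954, 1161 and 1555 with BT2. Of the other lists, 0 of 10 tested oxidation genes, 0 of 15 peroxins, 0 of 5 regulators, 0 of 7 fasting genes and 0 of 11 clock genes were called, as for all genes. Acacb was at -0.22 (adjusted p 0.908), Pex10 at -1.20, Pex2 at -0.63, Lpin1 at 1.31, Ppara at 1.01, Pdk4 at 1.26, Angptl4 at 0.89, Dbp at -2.21 and Npas2 at 1.80 on the log2 scale, the last 8 with adjusted p of 0.898 by limma. The clock index was -2.69 to 1.09 with vehicle and -0.23 to 3.22 with BT2.

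**Figure D5:**
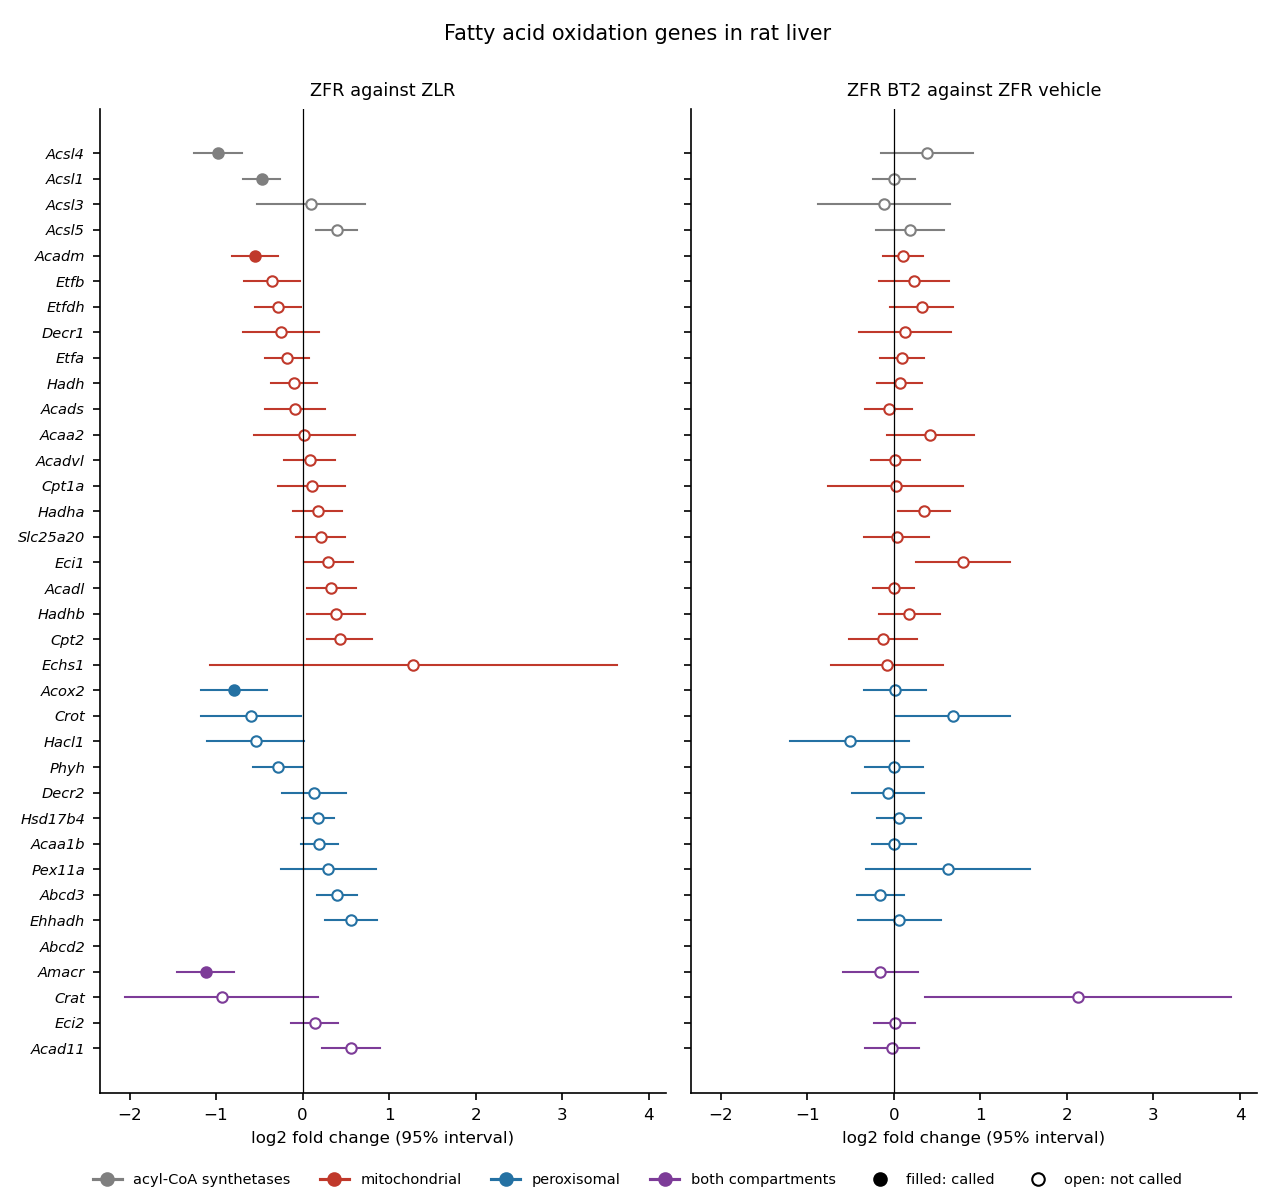
Log2 fold change (horizontal axis, 95% interval as a line) of the 35 members tested in rats, for ZFR against ZLR (left) and BT2 against vehicle in ZFR (right), coloured by compartment and filled where called. On the left 5 points are filled, all below 0, and the widest interval is that of Echs1; on the right none is filled and Crat lies farthest from 0 at 2.13.

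The members called with LNA29 in L-Sirt1 KO mice are set beside their rat values here, with no test of a difference. Decr1 had log2 fold changes of -0.60 with LNA29 in L-Sirt1 KO mice, -0.24 in ZFR against ZLR and 0.13 with BT2, and Eci1 had -0.47, 0.30 and 0.80. In ZFR against ZLR and with BT2, Acadl had 0.33 and -0.00, Acaa2 had 0.02 and 0.42, and Acaa1b had 0.19 and 0.00, while Acaa1a was not listed in rats under that symbol. None of these rat values passed the test. Acadm was lower in ZFR (-0.55, called) and at -0.23 with LNA29 in L-Sirt1 KO mice (adjusted p 0.660, limma). By the main criteria no member was called in 2 of the 4 comparisons.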

How the data were processed

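Per the labels, RNA of 21 mouse and 16 rat livers was sequenced, aligned with STAR to mm10 or rn6 and quantified with Salmon. The deposited signal is a normalized count: the authors divided estimated gene counts by DESeq2 normalization factors, separately in each of 4 tables. Whole reads could not be recovered (69.3 to 75.8% of low values in mice and 74.3 to 90.3% in rats were whole multiples of 1 read within 0.01), so no count test was run. All 37 libraries were matched to columns by name, and 0 columns were left unmatched. Entries without a name (381 mouse, 201 rat) and repeated names (130 and 4523 entries) were left out.

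Log2(normalized count + 1) was fitted with limma 3.58.1 (trend) in R 4.3.3, for genes with a mean of at least 10, with Benjamini-Hochberg adjustment over all genes tested. A fold change on this scale understates the change of low genes. The script was tested on simulated data. Tables were handled with pandas 2.3.3 in Python 3.11.15. Values per library are given for every called member, for Cpt1a and Acadl in mice, and for the 2 members per compartment whose log2 values differed most, while of other lists the called genes and the 2 that differed most are named, except for a few that are not reported here. Members and lists were chosen with earlier results of these data known. p-values measure the spread between the animals as labelled. Alternatives were another pseudocount, no minimum, TMM scaling, sample weights, covariates for flow cell and clock, the replicate block, and leaving out each animal. Leaving out rat libraries under 0.5 M reads was chosen after seeing the data. No rat genome was used here.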

Additional observations from a re-analysis of the deposited data

Results flagged for a closer look

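In 1 of 28 sets of a named gene in a group, a library stood apart from the others. For Acaa2 the L-Sirt1 KO LNA29 replicate 2 had 46415 normalized counts, the highest of its group, and its gap to the nearest library was 0.84 of the range of the group. By chance 5% of sets are expected to be flagged. It still lay below the lowest saline mouse, at 51566.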

How the results depend on the processing

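The 6 lower calls in L-Sirt1 KO mice (0.68% of all genes) became 0 at an adjusted p under 0.05 (0.0252%) or with flow cell as a covariate (0.17%). They became 2 with no minimum mean (0.167%) or with the clock index (0.227%), and 17 with sample quality weights (2.27%). Without single mice they numbered 0 to 11 (0.132% to 1.29%). The 5 lower calls in ZFR became 2 with no minimum mean (0.668% of all genes) or TMM scaling (1.6%) and 9 with weights (6.51%). They became 0 with the clock index (0.0116%) and 2 to 4 without single rats. The 0 higher calls became 1 with a pseudocount of 10 (2.4% of all genes), 3 with weights (7.03%) and 4 by the mouse criteria (3.46%). Without single rats there were 0 to 1 higher calls. The median log2 fold change in ZFR became -0.06 with weights and -0.13 with the clock index, and the mitochondrial minus peroxisomal median became -0.29 with the clock index and -0.18 to 0.03 without single rats. Differences of response between genotypes were called for 15 members with weights and 0 to 3 without single mice, and those at p under 0.05 numbered 24 with weights and 8 to 21. In WT/Floxed mice 1 member was called higher in floxed mice alone, and Cpt1a changed sign, to -0.0095 with sample quality weights and -0.044 without saline replicate 2 (-0.044 to 0.23 over single mice). The causes were not tested. The replicate numbers of compared groups gave correlations of deviations of -0.28 to 0.24 and no comparison had every pair above 0.1. The main fits therefore did not pair animals by number. Same-numbered rats shared a flow cell, as did some same-numbered mice, and what else they shared was not tested. The replicate block left 2 lower calls in L-Sirt1 KO mice (0.321% of all genes) and 2 in ZFR. Shares of all genes are not given here for that ZFR count or for counts without single rats. For differences of response they are not given without single mice, nor at p under 0.05 with weights. Removing libraries far under the median depth of their table, by the limit first set, was not run, as none fell under it. WT/Floxed lower, L-Sirt1 KO higher and BT2 calls were 0 under every alternative run. Depth limits low values in the shallow rat libraries, where 1 read reached 10.5 normalized counts.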
